A study of Arabidopsis thaliana with 36 samples.

Results

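The transcriptome of whole Arabidopsis thaliana seedlings was compared after 2 h with 10 µM 1-aminocyclopropane-1-carboxylic acid (ACC) and after 2 h of mock treatment. The comparison used 6 of the 36 libraries of the series, namely 3 ACC 2 h libraries and 3 mock 2 h libraries, which the series describes as biological replicates. It covered the 19442 genes, out of 33602 listed for these libraries, that reached at least 1 RPM (reads per 1e+06 reads) in at least 3 of the 12 libraries of the ethylene experiment. The ACC seedlings were wild type of the accession Col-0, 4 days old, grown in liquid Murashige and Skoog medium that contained glucose. The mock seedlings had the same genotype, age and medium, so glucose was present in both groups. Another 3 ACC and 3 mock libraries taken at 4 h entered the gene filter and the estimate of the spread, and are used below for comparison. Col-0 libraries with 15 mM glucose or without glucose for 2 h after 4 days without it are used only for comparison. Libraries of the tor line, with and without glucose, entered the gene filter and the spread of that glucose comparison. The labels do not say how many seedlings went into a library.

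Ethylene is a gaseous plant hormone, and ACC is the compound from which ACC oxidases make it. Without ethylene, the receptors keep the kinase CTR1 active, and CTR1 holds EIN2 in check. When ethylene binds the receptors, EIN2 is released and the transcription factors EIN3 and EIL1 accumulate, because their removal by the F-box proteins EBF1 and EBF2 stops. EIN3 and EIL1 then switch on ERF and EDF transcription factor genes. In seedlings ethylene is known for shorter hypocotyls and roots, an exaggerated apical hook and more root hairs.

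The 6 libraries at 2 h held 16.4 to 20.7 M (1e+06) reads on genes, so a floor of 3 reads corresponded to between 0.145 and 0.183 RPM in a library. Chloroplast genome genes took 0.189%, 0.190% and 0.267% of RPM in ACC seedlings, against 0.067%, 0.577% and 0.253% in mock seedlings. The first principal component of the 6 libraries held 43.0% of the variance and separated the ACC libraries from the mock libraries. The second held 25.4% and set ACC replicate 3 apart from the other ACC libraries, in the direction of mock replicate 3. Shoot and root markers were both present, and summed RPM of 22 antenna and Rubisco small subunit genes lay between 35160 and 43070 in ACC seedlings and between 43580 and 49150 in mock seedlings, with the lowest sum in ACC replicate 3. Summed RPM of 10 root markers lay between 168.7 and 182.8 in ACC seedlings and between 167.4 and 205.7 in mock seedlings. None of 7 genes for stored seed reserves reached the filter, and their sum stayed below 1 RPM in all 6 libraries. In whole seedlings, fewer cells of a type and less RNA per cell cannot be told apart.

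The early transcript changes after the ethylene precursor were sought by comparing the ACC 2 h libraries with the mock 2 h libraries. Changes are differences of group means of log2(RPM + 1), which understates the change of genes with low values, and are given ± SE. A gene was called, and is said to have risen or fallen, when its Benjamini-Hochberg adjusted p from limma over all 19442 genes was below 0.05. The spread behind these p-values was estimated from all 12 libraries of the ethylene experiment, those at 4 h included. In all, 1799 genes were called (9.25%), of which 1064 rose (5.47%) and 735 fell (3.78%). Most changes were small, with a median log2 change of 0.54 among genes that rose and -0.50 among those that fell, beside 0.03 over all genes tested. A change of at least 2-fold was reached by 169 genes that rose and 51 that fell, and one of at least 4-fold by 15 and 2 genes. The ACC and mock libraries did not overlap for 1780 of the called genes and for 4665 of all genes tested (24.0%). Genes that rose took 5.47%, 5.54% and 5.52% of RPM in ACC seedlings, against 3.75%, 3.76% and 3.74% in mock seedlings. Genes that fell took 2.89%, 2.84% and 2.73% of RPM in ACC seedlings, against 3.84%, 3.91% and 3.88% in mock seedlings. Without ACC replicate 3, which stood apart, 1683 genes were called, 1009 up and 674 down, and 1431 of these were among the 1799. When the fit used only the 6 libraries at 2 h, 1185 genes were called, 727 up and 458 down.

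**Figure D1:**
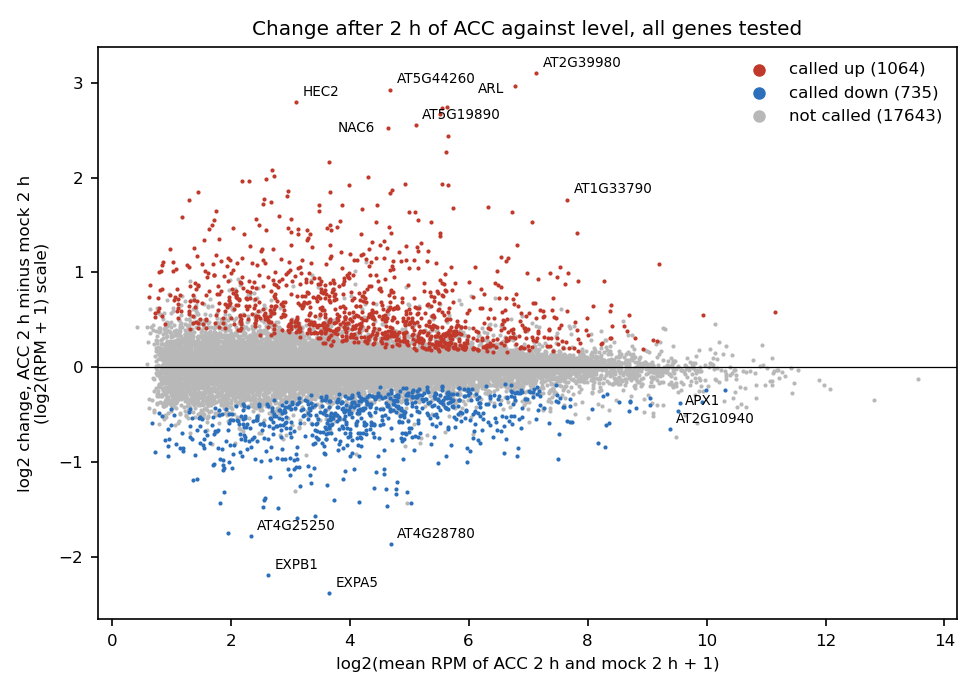
Each dot is 1 of 19442 genes, with its level (log2 of the mean RPM of the ACC 2 h and mock 2 h groups + 1) on the x axis and its log2 change, ACC 2 h minus mock 2 h, on the y axis. The 1064 genes called up are red, the 735 called down are blue and the others grey. Named examples run from AT2G39980 at 3.101 to EXPA5 at -2.38.

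All 5 ethylene receptor genes rose. Of 8 genes for receptors and their partners, 6 rose and none fell (median log2 0.63), beside 5.47% and 3.78% of all genes, and between 4 and 6 rose over 9 alternatives and 12 left-out libraries. The 5 receptor genes are ETR1, ERS1, ETR2, ERS2 and EIN4. ERS2 (AT1G04310) had 46.5, 48.2 and 47.6 RPM in ACC seedlings, against 11.9, 12.1 and 10.9 RPM in mock seedlings, and rose by 1.94 ± 0.08 (adjusted p = 3.35e-08). ETR2 (AT3G23150) stood at 82.6, 76 and 81.3 RPM in ACC seedlings, against 25.4, 23.4 and 24.2 RPM in mock seedlings, a rise of 1.68 ± 0.09 (adjusted p = 3.62e-07). The libraries of a group lay close together for both genes and the groups were far apart. ERS1 (AT2G40940) measured 265, 276 and 274 RPM after ACC and 136, 135 and 137 RPM after mock, and rose by 0.99 ± 0.06 (adjusted p = 4.88e-07). The remaining receptor genes moved less. ETR1 (AT1G66340) was at 40.2, 40.2 and 40.6 RPM in ACC seedlings and 33.7, 31 and 35 RPM in mock seedlings, a rise of 0.27 ± 0.06 (adjusted p = 0.0101), and EIN4 (AT3G04580) rose by 0.25 ± 0.07 (adjusted p = 0.0361). The call of ETR1 was lost with only the 2 h libraries, and that of EIN4 also with DESeq2 and without ACC replicate 2 or 3, mock replicate 1 or 2 or some 4 h libraries. RTE1 (AT2G26070), whose product ETR1 needs for its action, had 27.4, 27.5 and 26.1 RPM after ACC, against 11, 11.4 and 10.1 RPM after mock, and rose by 1.25 ± 0.10 (adjusted p = 3e-06). Its relative RTH (AT3G51040) was at 14.8, 14.3 and 15.9 RPM in ACC seedlings and 15, 14.6 and 15.6 RPM in mock seedlings, with overlapping groups (log2 -0.01 ± 0.07, adjusted p = 0.977). RAN1 (AT5G44790), a copper transporter that supplies the receptors, was not called either (log2 -0.04 ± 0.06, adjusted p = 0.801).

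Downstream of the receptors, 7 of 11 relay genes rose and none fell (median log2 0.32), beside 5.47% and 3.78% of all genes. CTR1 (AT5G03730), the kinase that restrains the pathway, had 212, 220.3 and 222 RPM in ACC seedlings, against 116, 98.3 and 114 RPM in mock seedlings, and rose by 1.00 ± 0.09 (adjusted p = 7.93e-06). EBF2 (AT5G25350), an F-box gene whose product removes EIN3, reached 323, 328 and 331 RPM in ACC seedlings, against 110.2, 157 and 105 RPM in mock seedlings, a rise of 1.42 ± 0.12 (adjusted p = 6.49e-06). EBF1 (AT2G25490) measured 172, 173 and 161 RPM after ACC, against 96.4, 122 and 98.8 RPM after mock, and rose by 0.68 ± 0.10 (adjusted p = 0.000706). Each of these genes for negative regulators was higher in all 3 ACC libraries than in any mock library. The groups did not overlap for 98.94% of all called genes. Genes for positive regulators rose less, apart from EIL2, a relative of EIN3. EIN2 (AT5G03280) was at 205, 192 and 209.8 RPM in ACC seedlings and 132, 130.5 and 135 RPM in mock seedlings, a rise of 0.61 ± 0.06 (adjusted p = 4.28e-05). EIN3 (AT3G20770) stood at 134, 142 and 154 RPM in ACC seedlings and 129, 121 and 121 RPM in mock seedlings, a rise of 0.21 ± 0.06 (adjusted p = 0.0399). Its call was lost with edgeR, with median-of-ratios scaling, with only the 2 h libraries and with the replicate number as a block. The call was also lost without ACC replicate 2 or 3, mock replicate 2 or 3 or some 4 h libraries. EIL1 (AT2G27050) rose by 0.32 ± 0.05 (adjusted p = 0.000484) and EIL2 (AT5G21120) by 0.81 ± 0.14 (adjusted p = 0.00159). EIL3 (AT1G73730), XRN4 (AT1G54490), an exonuclease, and the EIN2-binding F-box genes ETP1 (AT3G18980) and ETP2 (AT3G18910) were not called, with log2 changes of -0.04, 0.04, 0.10 and 0.09.

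Among genes of ethylene synthesis, genes for ACC oxidases rose, ACO1, ACO4 and ACO5 among them, and no tested ACC synthase gene did. Of 18 genes 12 were tested, 4 rose and none fell, beside 5.47% and 3.78% of all genes. Their median log2 change was 0.11, but 0.33 without ACC replicate 3 and 0.21 without mock replicate 2. ACO1 (AT2G19590) had 43.1, 42.5 and 42 RPM in ACC seedlings, against 14, 18.1 and 19 RPM in mock seedlings (log2 1.28 ± 0.09, adjusted p = 1.86e-06). ACO4 (AT1G05010) had 794, 805 and 783 RPM in ACC seedlings, against 408, 324 and 396 RPM in mock seedlings (log2 1.08 ± 0.10, adjusted p = 1.17e-05). ACO5 (AT1G77330) had 237, 236 and 231 RPM in ACC seedlings, against 105, 121 and 139 RPM in mock seedlings (log2 0.95 ± 0.08, adjusted p = 7.93e-06). None of these groups overlapped, which held for 98.94% of all called genes. ACO3 (AT1G12010) was at 34.2, 23.3 and 34 RPM in ACC seedlings and 29.2, 26 and 32 RPM in mock seedlings, with overlapping groups (log2 0.05 ± 0.13, adjusted p = 0.873). The ACC synthase genes that were tested, ACS2 (AT1G01480), ACS6 (AT4G11280) and ACS7 (AT4G26200), had log2 changes of -0.19, 0.10 and 0.12, and none was called. Another 6 ACC synthase genes stayed below the filter, among them ACS4 (AT2G22810) at 0, 0.0482 and 0 RPM in ACC seedlings and 0.315, 0.488 and 0.322 RPM in mock seedlings, and ACS11 (AT4G08040) at 0.495, 0.482 and 0.611 RPM in ACC seedlings and 1.36, 0.683 and 0.965 RPM in mock seedlings. LHT1 (AT5G40780), an amino acid carrier that also takes up ACC, ranged widely within groups, with 108, 137 and 74.9 RPM after ACC and 90.0, 90.5 and 54.3 RPM after mock (log2 0.44 ± 0.24, adjusted p = 0.331). Making ethylene from ACC releases cyanide, and CYSC1 (AT3G61440), a mitochondrial enzyme that detoxifies cyanide, had 1100.3, 1176 and 1237 RPM in ACC seedlings, against 825, 788 and 777 RPM in mock seedlings (log2 0.55 ± 0.07, adjusted p = 0.00016). All 3 ACC libraries likewise lay above all mock libraries for CYSC1.

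The ERF and EDF genes encode transcription factors acting after EIN3. Of 24 tested, 14 rose and none fell (median log2 0.70), beside 5.47% and 3.78% of all genes. EDF3 (AT3G25730) had 32.8, 35.6 and 23.9 RPM in ACC seedlings, against 7.19, 8.74 and 4.93 RPM in mock seedlings, a rise of 2.01 ± 0.19 (adjusted p = 1.61e-05). ERF11 (AT1G28370), which encodes a repressor, had 6.23, 7.81 and 4.76 RPM after ACC, against 1.21, 0.781 and 0.59 RPM after mock, and rose by 1.96 ± 0.17 (adjusted p = 7.93e-06). ERF1 (AT3G23240), a direct target of EIN3, reached 2.62, 2.46 and 2.14 RPM in ACC seedlings, against 0.105, 0.244 and 0.0536 RPM in mock seedlings, where its values lay near or under the floor of 3 reads. Its log2(RPM + 1) change was 1.59 ± 0.15 (adjusted p = 1.43e-05). ERF2 (AT5G47220) was at 16.4, 17.4 and 16.4 RPM in ACC seedlings and 7.66, 7.18 and 5.79 RPM in mock seedlings (log2 1.18 ± 0.12, adjusted p = 2.36e-05). EDF1 (AT1G25560) and EDF2 (AT1G68840) rose by 1.06 and 0.93, while EDF4 (AT1G13260), also known as RAV1, was not called (0.07 ± 0.11, adjusted p = 0.792). The group VII factors, known for low oxygen responses, were split. RAP2.2 (AT3G14230), HRE1 (AT1G72360) and RAP2.3 (AT3G16770) rose by 0.91, 0.90 and 0.52, and RAP2.12 (AT1G53910) was not called (0.14 ± 0.05, adjusted p = 0.103). ORA59 (AT1G06160), which joins ethylene and jasmonate defence signals, had 5.69, 5.3 and 5.31 RPM in ACC seedlings and 3.25, 2.78 and 1.5 RPM in mock seedlings and rose by 0.91 ± 0.20 (adjusted p = 0.00972). The repressor genes ERF3 (AT1G50640), ERF4 (AT3G15210) and ERF7 (AT3G20310) were not called, with log2 changes of -0.04, -0.20 and -0.07. In contrast, ERF9 (AT5G44210) of the same list rose. The call of RAP2.3 was lost with only the 2 h libraries and without ACC replicate 1 or 2 or mock replicate 2.

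**Figure D2:**
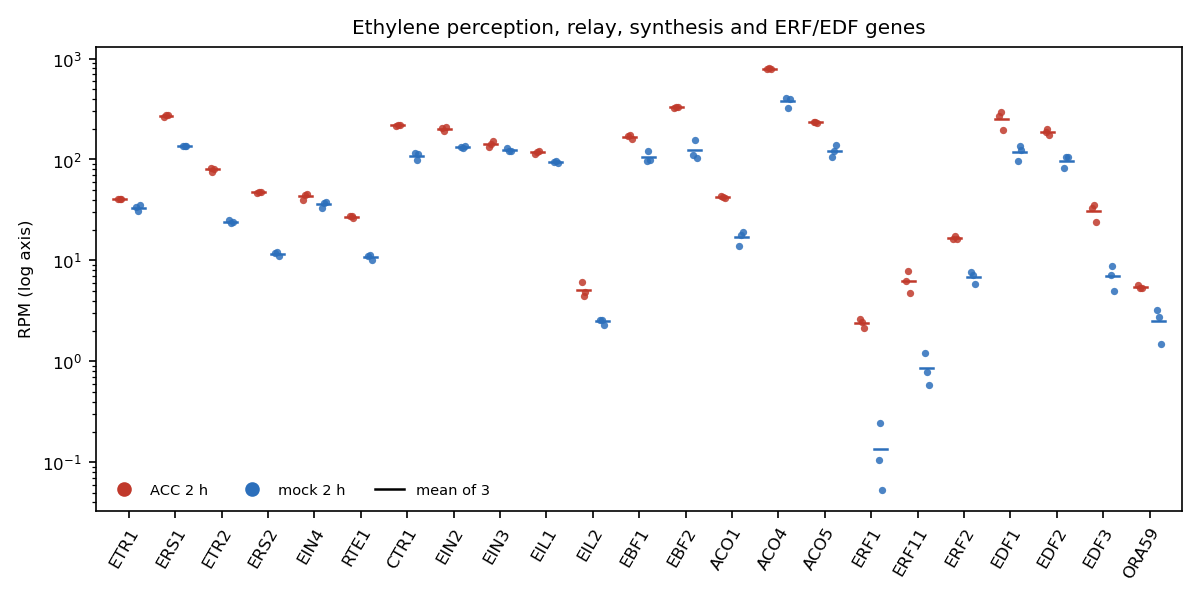
RPM on a log axis in each ACC 2 h library (red, left in each pair) and mock 2 h library (blue, right), with a line at the mean of 3, for 23 genes of ethylene perception, relay, synthesis and response. The 23 genes were picked from those called up, and members of the same lists that were not called are not shown. Every ACC library lies above every mock library in each gene shown, and the groups did not overlap for 98.94% of all called genes. The gap is widest for ERF1, with a mock value as low as 0.0536 RPM.

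All 5 genes of organ size and the apical hook rose (median log2 2.16), beside 5.47% of all genes. ARL (AT2G44080), which promotes cell expansion, had 161, 197 and 226 RPM in ACC seedlings, against 23, 27.5 and 21.7 RPM in mock seedlings, a rise of 2.96 ± 0.11 (adjusted p = 2.9e-08). ARGOS (AT3G59900), which enlarges organs and lowers ethylene sensitivity at the receptors, had 86.2, 86.7 and 83.1 RPM after ACC, against 10.9, 15 and 10.2 RPM after mock, and rose by 2.75 ± 0.12 (adjusted p = 3.88e-08). Their relative OSR1 (AT2G41230) stood at 1.34, 1.83 and 5.44 RPM in ACC seedlings, against 0, 0.0976 and 0 RPM in mock seedlings, where it was under the floor of 3 reads (log2 1.76 ± 0.29, adjusted p = 0.00143). ACC replicate 3 was the highest library for ARL and OSR1. HB52 (AT5G53980), a homeodomain factor of ethylene-controlled root growth, measured 21.3, 18.2 and 19 RPM in ACC seedlings, against 3.78, 3.47 and 3.49 RPM in mock seedlings, and rose by 2.16 ± 0.15 (adjusted p = 1.12e-06). HLS1 (AT4G37580), which is needed to form the apical hook, had 11.6, 10.7 and 9.77 RPM in ACC seedlings, against 2.68, 4.69 and 2.9 RPM in mock seedlings (log2 1.43 ± 0.15, adjusted p = 4.74e-05).

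The largest rise of any called gene was that of AT2G39980, annotated as an HXXXD-type acyltransferase. It had 271, 291 and 193 RPM in ACC seedlings, against 28.6, 29.4 and 26.2 RPM in mock seedlings, a log2 change of 3.101 ± 0.18 (adjusted p = 4.41e-07). The bHLH genes HEC1 (AT5G67060) and HEC2 (AT3G50330), known for carpel development, rose together. HEC1 had 71.6, 72.8 and 88.2 RPM after ACC, against 8.97, 16.5 and 9.71 RPM after mock (2.67 ± 0.18, adjusted p = 9.23e-07), and HEC2 had 15.5, 13.9 and 12.5 RPM, against 1.05, 1.61 and 0.858 RPM (2.79 ± 0.27, adjusted p = 2.18e-05). NAC6 (AT5G39610), also called ORE1 and known for leaf senescence, measured 38, 43.5 and 42.8 RPM in ACC seedlings, against 6.82, 5.91 and 6.44 RPM in mock seedlings (2.52 ± 0.18, adjusted p = 1.38e-06). NAC3 (AT3G15500), also called ANAC055 and known from stress and jasmonate responses, measured 7.12, 9.16 and 12.8 RPM in ACC seedlings, against 1.73, 1.51 and 1.5 RPM in mock seedlings (2.02 ± 0.15, adjusted p = 2.64e-06). The groups were apart in all of these genes, which the choice of the largest rises had required. AT5G44260, annotated as a CCCH-type zinc finger protein, rose by 2.93 ± 0.15 with 48.9, 45.9 and 38.2 RPM after ACC, against 4.83, 6.05 and 4.08 RPM after mock (adjusted p = 1.54e-07). The peroxidase gene AT5G19890 had 64.5, 70.9 and 38.5 RPM in ACC seedlings, against 14.5, 8.01 and 5.63 RPM in mock seedlings (2.55 ± 0.44, adjusted p = 0.00182), a rise with a wide error and the lowest ACC value in replicate 3. AT5G40590 (a C1 domain protein), AT3G20395 (a RING protein), AT2G39400 (an alpha/beta hydrolase) and AT5G49690 (a glycosyltransferase) rose by 2.74, 2.44, 2.27 and 2.08. The called genes with the largest rises in RPM included ACO4, CYSC1, AT2G39980 and the jacalin lectin gene AT1G33790. AT1G33790 had 314, 307 and 315 RPM in ACC seedlings, against 86.3, 95.1 and 91.9 RPM in mock seedlings (1.77 ± 0.10, adjusted p = 3.62e-07).

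Short promoters were read for the motifs that EIN3 and the ERF proteins are known to bind. The motifs, ATGTANCT for EIN3-type factors and AGCCGCC (the GCC box) for ERF proteins, and the window of 300 bases before the annotated gene start were chosen after the gene values had been seen, and no other motif or window was tried. Both strands were searched. The EIN3-type motif was in 4.38% of 19317 promoters of tested genes, 5.93% of those of genes that rose and 6.26% of those of genes that fell. In the 169 genes that rose at least 2-fold it was in 16 (9.47%), and in the 51 that fell at least 2-fold in 2 (3.92%). The GCC box was in 0.740% of all promoters, 0.659% of those of genes that rose and 0 of 735 of those that fell. None of the 36 called ethylene, ERF, EDF, organ size and hook genes held either motif in this window, and among the 15 largest rises 1 gene held each. These were NAC3, with an EIN3-type match that starts 232 bases before the gene, and AT5G19890, with a GCC box that starts 88 bases before the gene. Their promoters are shown as the matches among the largest rises, on the coding strand from RefSeq TAIR10.1, chr3:5234157-5234456 on the plus strand for NAC3 and chr5:6725967-6726266 on the minus strand for AT5G19890, with the match in capitals.
NAC3: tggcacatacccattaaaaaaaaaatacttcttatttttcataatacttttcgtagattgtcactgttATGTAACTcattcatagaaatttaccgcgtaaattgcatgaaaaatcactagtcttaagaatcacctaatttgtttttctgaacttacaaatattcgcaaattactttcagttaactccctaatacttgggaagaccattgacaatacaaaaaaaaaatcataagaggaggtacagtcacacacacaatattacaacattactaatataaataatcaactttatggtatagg
AT5G19890: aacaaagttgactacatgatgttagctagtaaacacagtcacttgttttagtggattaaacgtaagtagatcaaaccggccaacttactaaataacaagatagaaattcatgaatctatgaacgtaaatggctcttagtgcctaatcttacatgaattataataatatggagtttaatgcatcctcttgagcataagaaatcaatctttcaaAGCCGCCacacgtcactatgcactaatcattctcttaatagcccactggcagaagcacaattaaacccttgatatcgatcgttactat
A match is a run of letters and not a shown binding site, and the shares were not tested.

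Genes of auxin, the hormone that ethylene is known to act through in roots and the hook, moved in part. In auxin synthesis 2 of 15 genes rose and none fell, beside 5.47% and 3.78% of all genes. YUC3 (AT1G04610) and YUC9 (AT1G04180), which encode enzymes of the last step, were those called. YUC3 had 13.3, 12.9 and 14.6 RPM in ACC seedlings, against 4.09, 5.52 and 5.69 RPM in mock seedlings (1.27 ± 0.12, adjusted p = 1.57e-05). YUC9 had 2.72, 3.33 and 3.18 RPM in ACC seedlings, against 0.787, 0.976 and 1.39 RPM in mock seedlings (1.00 ± 0.13, adjusted p = 0.000248). TAA1 (AT1G70560), TAR2 (AT4G24670), ASA1 (AT5G05730) and ASB1 (AT1G25220), named in earlier work on ethylene and auxin in roots, were not called, with log2 changes of 0.15, 0.13, 0.32 and 0.14. Of 15 auxin transport genes 3 rose and 2 fell. PID (AT2G34650), a kinase that directs PIN carriers, had 9.99, 10.6 and 11.4 RPM after ACC, against 5.56, 5.22 and 5.15 RPM after mock (0.88 ± 0.11, adjusted p = 0.00017). The efflux carrier gene PIN7 (AT1G23080) rose by 0.54 ± 0.08 while its close relative PIN3 (AT1G70940) fell by 0.26 ± 0.07 (adjusted p = 0.000934 and 0.0404). PIN7 had 206, 197 and 212 RPM in ACC seedlings, against 149, 133 and 142 RPM in mock seedlings. The carrier genes ABCB4 (AT2G47000) and LAX1 (AT5G01240) changed by 0.52 and -0.30. The call of PIN3 was lost with no filter, with only the 2 h libraries, and without ACC replicate 2 or 3, mock replicate 1 or 2 or some 4 h libraries.

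Early auxin response genes moved in both directions, with 11 of 35 up and 5 down (median log2 0.17), beside 5.47% and 3.78% of all genes. The rises came to 7 without ACC replicate 1 or mock replicate 3, and the falls to 3 without mock replicate 1. IAA29 (AT4G32280), an Aux/IAA repressor gene, had 10.1, 8.34 and 8.12 RPM in ACC seedlings, against 1.52, 2.73 and 1.66 RPM in mock seedlings (1.75 ± 0.15, adjusted p = 7.28e-06). SAUR76 (AT5G20820) had 9.64, 9.3 and 5.13 RPM in ACC seedlings, against 1.68, 1.61 and 1.66 RPM in mock seedlings (1.72 ± 0.18, adjusted p = 3.13e-05). The opposite held for SAUR50 (AT4G34760), whose family promotes cell expansion, with 5.79, 4.97 and 5.13 RPM in ACC seedlings, against 12.9, 14 and 11.5 RPM in mock seedlings (-1.13 ± 0.09, adjusted p = 3e-06). In none of these 3 genes did the groups overlap, which held for 98.94% of all called genes. IAA2 (AT3G23030), IAA4 (AT5G43700) and IAA28 (AT5G25890) rose by 0.74, 0.73 and 0.49, whereas IAA3 (AT1G04240) and IAA16 (AT3G04730) changed by -0.60 and -0.24. GH3.2 (AT4G37390), which conjugates auxin to amino acids, rose by 0.79 ± 0.21 (adjusted p = 0.0319). SAUR15 (AT4G38850) and SAUR16 (AT4G38860) fell by 0.85 and 0.68. The calls of 3 of these genes were lost when single libraries were left out. That of GH3.2 was lost without ACC replicate 1 or 2 or any mock library, and also with no filter. SAUR15 lost its call without ACC replicate 3 or mock replicate 1. For IAA16 it was lost without mock replicate 1 and with only the 2 h libraries. IAA20 (AT2G46990), IAA1 (AT4G14560) and IAA11 (AT4G28640) rose by 0.89, 0.44 and 0.27. Each of these calls was lost with only the 2 h libraries and without ACC replicate 1, mock replicate 3 or other single libraries. IAA1 and IAA11 also lost theirs with no filter, and IAA11 with edgeR, DESeq2 and median-of-ratios scaling.

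Among 19 cytokinin genes 4 fell and 1 rose, beside 3.78% and 5.47% of all genes, and 14 were not called. Their median log2 change was -0.03, and lay between -0.07 and 0.05 over the alternatives and left-out libraries. The type-A response regulator genes ARR4, ARR5 and ARR6, quick markers of that hormone, were among those that fell. ARR6 (AT5G62920) had 5.93, 4.58 and 4.15 RPM in ACC seedlings, against 11.8, 9.37 and 10.2 RPM in mock seedlings (-0.96 ± 0.18, adjusted p = 0.00383). ARR4 (AT1G10470) had 51.3, 47.1 and 40.5 RPM in ACC seedlings, against 67.1, 69.5 and 69.5 RPM in mock seedlings (-0.57 ± 0.07, adjusted p = 0.000216). ARR5 (AT3G48100) fell by 0.66 ± 0.15 (adjusted p = 0.0127), a call lost without ACC replicate 2 or mock replicate 1, and CKX7 (AT5G21482), a cytokinin oxidase gene, fell by 0.55 ± 0.10. ARR16 (AT2G40670) went the other way, with 7.67, 7.09 and 9.22 RPM after ACC, against 4.72, 4.59 and 5.36 RPM after mock (0.61 ± 0.10, adjusted p = 0.00179).

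In the gibberellin list, 3 of 16 genes rose and 3 fell, beside 5.47% and 3.78% of all genes. GA2OX6 (AT1G02400), an enzyme that inactivates gibberellin, had 20.2, 19.3 and 18.8 RPM in ACC seedlings, against 8.71, 10.8 and 8.96 RPM in mock seedlings (0.97 ± 0.11, adjusted p = 5.23e-05). GA3OX1 (AT1G15550), an enzyme of its last activating step, had 10.8, 9.5 and 11.5 RPM in ACC seedlings, against 17.7, 17.5 and 17.9 RPM in mock seedlings (-0.69 ± 0.09, adjusted p = 0.000157). The receptor genes GID1C (AT5G27320) and GID1B (AT3G63010) rose by 0.80 and 0.33. GA2OX2 (AT1G30040), also an inactivating enzyme, and GA3OX2 (AT1G80340) fell by 0.39 and 0.73. The calls of GA2OX2, GA3OX2 and GID1B were lost with only the 2 h libraries. GA2OX2 and GA3OX2 also lost theirs with no filter, GA2OX2 with the replicate number as a block, and GID1B with edgeR and median-of-ratios scaling. Without single libraries, the call of GA2OX2 was lost for ACC replicate 1 or 2, any mock library or some 4 h libraries. For GA3OX2 these were ACC replicate 2 or 3 or mock replicate 2 or 3, and for GID1B ACC replicate 1 or 2 or mock replicate 3.

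Brassinosteroid genes rose and fell in 3 of 13 cases each, beside 5.47% up and 3.78% down of all genes. BEE3 (AT1G73830), a bHLH growth factor gene, had 64.7, 74.9 and 80.4 RPM in ACC seedlings, against 17.8, 21.4 and 16.3 RPM in mock seedlings (1.93 ± 0.13, adjusted p = 1.05e-06). BEE1 (AT1G18400) and BES1 (AT1G19350), a transcription factor of the pathway, rose by 0.61 and 0.49. The synthesis genes DWF4 (AT3G50660) and CPD (AT5G05690) and the inactivating enzyme gene BAS1 (AT2G26710) fell by 0.47, 0.34 and 0.35. For abscisic acid, 3 of 12 genes rose and 1 fell. ABI1 (AT4G26080), a phosphatase that restrains the pathway, had 147, 163 and 163 RPM in ACC seedlings, against 58.2, 73.7 and 60.9 RPM in mock seedlings (1.29 ± 0.08, adjusted p = 5.72e-07). Its relatives differed from it in direction or size, since AHG3 (AT3G11410) fell by 0.46 ± 0.09 and HAI2 (AT1G07430) rose by 0.74 ± 0.14. CYP707A2 (AT2G29090), which breaks the hormone down, rose by 0.55 ± 0.09. The call of BAS1 was lost with no filter, with only the 2 h libraries, and without ACC replicate 2 or 3 or mock replicate 2 or 3. Jasmonate genes gave 2 rises (the repressor genes JAZ3 and JAZ6) and 2 falls (the factor MYC2 and the repressor gene JAZ12) among 15, between 0.33 and 0.55 in size. Each of these 4 calls was lost without at least 2 single libraries, and over the alternatives and left-out libraries the counts lay between 0 and 3 in each direction.

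Expansins, proteins that loosen the cell wall during growth, fell more often than they rose. Of 28 genes 23 were tested, 10 fell and 2 rose, beside 3.78% and 5.47% of all genes. Their median log2 change was -0.40, but -0.24 without ACC replicate 3 and -0.22 with no filter, while between 9 and 11 fell over the alternatives and left-out libraries. EXPA5 (AT3G29030) had 3.46, 3.33 and 2.38 RPM in ACC seedlings, against 20.7, 23.4 and 16.3 RPM in mock seedlings, the largest fall of any called gene (-2.38 ± 0.16, adjusted p = 1.04e-06). EXPB1 (AT2G20750) had 1.29, 1.4 and 0.916 RPM in ACC seedlings, against 6.51, 9.96 and 11.1 RPM in mock seedlings (-2.19 ± 0.20, adjusted p = 1.05e-05). EXPA1 (AT1G69530), known from stomata and leaf growth, had 137, 140.4 and 92.3 RPM in ACC seedlings, against 255, 234 and 221 RPM in mock seedlings (-0.96 ± 0.14, adjusted p = 0.000646). In each of these genes ACC replicate 3 was the lowest library. EXPA10 (AT1G26770), with 14.2, 15.1 and 12.5 RPM after ACC and 33, 31.6 and 30.1 RPM after mock, fell by 1.13 ± 0.12 (adjusted p = 3.64e-05). EXPA8 (AT2G40610), EXPA14 (AT5G56320), EXPA15 (AT2G03090), EXPB3 (AT4G28250) and EXPA6 (AT2G28950) fell by 1.48, 1.57, 0.93, 0.63 and 0.57. EXPA17 (AT4G01630) spread widely, with 3.66, 6.56 and 0.977 RPM after ACC and 8.61, 11.3 and 14.9 RPM after mock (-1.58 ± 0.38, adjusted p = 0.0173), and was not called with DESeq2, with only the 2 h libraries or without mock replicate 3. The exceptions were EXPA7 (AT1G12560), an expansin of root hairs, at 39.9, 34.3 and 32.9 RPM in ACC seedlings and 16.6, 24 and 23.2 RPM in mock seedlings (0.74 ± 0.12, adjusted p = 0.00134), and EXPA12 (AT3G15370), at 2.52, 1.35 and 2.99 RPM in ACC seedlings and 0.315, 0.879 and 0.429 RPM in mock seedlings (1.08 ± 0.21, adjusted p = 0.00458). The second expansin of root hairs, EXPA18 (AT1G62980), was not called (0.22 ± 0.12, adjusted p = 0.332).

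**Figure D3:**
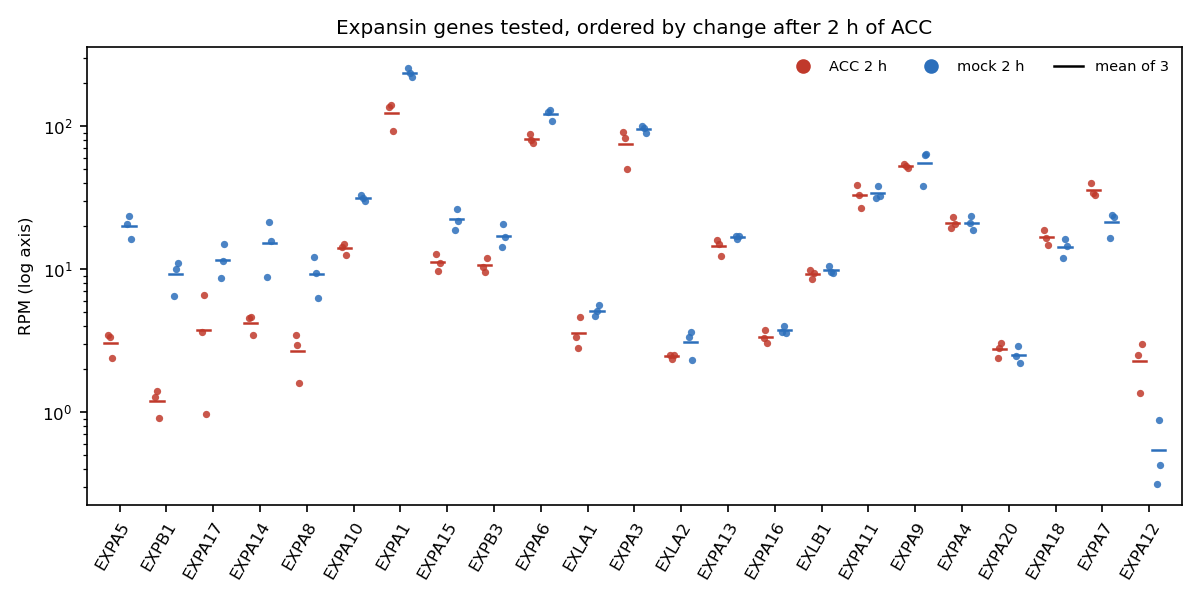
RPM on a log axis of the 23 expansin genes tested, in each ACC 2 h library (red, left in each pair) and mock 2 h library (blue, right), with a line at the mean of 3. Genes run from EXPA5, which changed by -2.38, to EXPA12, which changed by 1.08, and the 10 genes at the left are those that fell.

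Other cell wall genes moved less uniformly. Xyloglucan remodelling (XTH) genes rose in 5 and fell in 4 of 28 cases, beside 5.47% and 3.78% of all genes. The falls came to 1 without mock replicate 2 and 2 with only the 2 h libraries. Their median log2 change of 0.10 was 0.03, 0.06 and 0.04 without ACC replicate 3, mock replicate 1 and mock replicate 3. XTH21 (AT2G18800), an XTH of roots, had 1.34, 1.83 and 0.916 RPM in ACC seedlings, against 3.04, 4.15 and 4.72 RPM in mock seedlings (-1.08 ± 0.18, adjusted p = 0.00173). XTH31 (AT3G44990), XTH7 (AT4G37800) and XTH15 (AT4G14130) rose by 0.44, 0.44 and 0.59. XTH26 (AT4G28850) rose by 0.75 and XTH6 (AT5G65730) fell by 0.84, calls lost without ACC replicate 2 or 3 or mock replicate 1 or 3 for XTH26 and without ACC replicate 1 or 2 or mock replicate 2 for XTH6. XTH8 (AT1G11545) and XTH32 (AT2G36870) fell by 0.52 and 0.41, and their calls were lost without mock replicate 2, that of XTH8 also without mock replicate 3. With only the 2 h libraries XTH6 and XTH8 were not called, and with no filter XTH26 was not. In cellulose synthesis 1 of 13 genes fell, the primary wall gene CESA5 (AT5G09870), with 117, 116 and 127 RPM after ACC and 145, 152 and 149.9 RPM after mock (-0.31 ± 0.06, adjusted p = 0.00425). The largest falls outside these lists were AT4G28780, annotated as a GDSL lipase, and AT4G25250, a pectin methylesterase inhibitor family gene. AT4G28780 had 10.5, 10.5 and 9.4 RPM in ACC seedlings, against 36.1, 42 and 40.5 RPM in mock seedlings (-1.86 ± 0.11, adjusted p = 4.41e-07). AT4G25250 had 1.14, 2.22 and 0.489 RPM in ACC seedlings, against 3.88, 6.93 and 9.65 RPM in mock seedlings (-1.78 ± 0.29, adjusted p = 0.00132). The GDSL lipase gene AT5G45950, AT4G15630 (of an uncharacterized family) and AT1G18810 (a phytochrome kinase substrate-like protein) fell by 1.43, 1.33 and 1.38. AT4G12510 and AT4G12520, neighbouring genes of a lipid transfer family, fell by 1.47 and 1.47, and reads of such similar copies may have been split between them.

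Root hair genes leaned upward, with 4 of 20 up and none down (median log2 0.37), beside 5.47% and 3.78% of all genes. Between 2 and 5 rose over the alternatives and left-out libraries. Without mock replicate 1, 2 rose and the median was 0.21. RSL4 (AT1G27740), the factor that sets root hair growth, had 9.05, 7.91 and 6.84 RPM in ACC seedlings, against 4.25, 6 and 4.02 RPM in mock seedlings (0.64 ± 0.15, adjusted p = 0.015), and its call was lost without ACC replicate 1, mock replicate 1 or mock replicate 3. PRP1 (AT1G54970), a proline-rich wall protein, and RHS12 (AT3G10710), a pectin methylesterase, rose by 0.63 and 0.51, and the call of PRP1 was lost without mock replicate 1. The fourth was EXPA7, described above. RHD6 (AT1G66470), the factor above RSL4, was not called, at 2.92, 3.28 and 2.14 RPM after ACC and 1.73, 4.74 and 3 RPM after mock (-0.08 ± 0.21, adjusted p = 0.872). None of 7 genes of the hairless cell fate was called, GL2 (AT1G79840) among them (-0.37 ± 0.18, adjusted p = 0.269). Mock replicate 1 was the lowest mock library for RHS12, PRP1 and EXPA7.

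Aquaporin genes, for water channels, fell in 8 of 19 cases and rose in none, beside 3.78% and 5.47% of all genes. Their median log2 change was -0.38, but -0.19 without ACC replicate 3, while between 7 and 11 fell over the alternatives and left-out libraries. PIP1;4 (AT4G00430) had 62, 60.7 and 49.7 RPM in ACC seedlings, against 90.4, 95.4 and 86.3 RPM in mock seedlings (-0.66 ± 0.09, adjusted p = 0.000325). PIP2;7 (AT4G35100) had 259, 243 and 245 RPM in ACC seedlings, against 341, 430.1 and 372 RPM in mock seedlings (-0.61 ± 0.11, adjusted p = 0.00211). Both belong to the plasma membrane family, as do PIP2;1 (AT3G53420), PIP2;6 (AT2G39010), PIP2;3 (AT2G37180), PIP1;3 (AT1G01620) and PIP1;2 (AT2G45960), which fell by 0.58, 0.52, 0.47, 0.42 and 0.32. The root vacuolar channel gene TIP2;3 (AT5G47450), also a root marker here, had 26.1, 17.2 and 24.2 RPM in ACC seedlings, against 35.8, 34.8 and 40.0 RPM in mock seedlings (-0.71 ± 0.15, adjusted p = 0.00759). Among vacuolar channels with high values, TIP1;1 (AT2G36830) was not called, at 587, 526 and 289.8 RPM after ACC, with replicate 3 far below the others, and 579, 654 and 642 RPM after mock (-0.48 ± 0.19, adjusted p = 0.167). The call of PIP1;3 was lost with only the 2 h libraries and without ACC replicate 2 or 3 or mock replicate 2 or 3.

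Genes that mark darkness and sugar shortage rose in 7 of 18 cases and fell in none (median log2 0.28), although both groups grew with glucose. Of all genes, 5.47% rose and 3.78% fell. SEN5 (AT3G15450) had 249, 252 and 396 RPM in ACC seedlings, against 143, 139.5 and 185 RPM in mock seedlings (0.91 ± 0.20, adjusted p = 0.00968). SEN1 (AT4G35770) had 23.6, 31.2 and 41 RPM in ACC seedlings, against 16.2, 11.2 and 13.6 RPM in mock seedlings (1.15 ± 0.17, adjusted p = 0.000605). In both genes ACC replicate 3 was the highest library, as it was for the uncalled asparagine synthetase gene DIN6 (AT3G47340), at 4.75, 5.16 and 8.86 RPM after ACC and 4.83, 3.27 and 2.57 RPM after mock (0.66 ± 0.23, adjusted p = 0.0981). The KMD genes encode F-box proteins with targets in cytokinin signalling and phenylpropanoid synthesis. KMD2 (AT1G15670) had 89, 85.9 and 73.8 RPM in ACC seedlings, against 45.2, 43.8 and 42.9 RPM in mock seedlings (0.90 ± 0.09, adjusted p = 3.87e-05), and KMD1 (AT1G80440) and KMD4 (AT3G59940) rose by 1.04 and 0.54. The glutamate dehydrogenase gene GDH2 (AT5G07440) and IVD (AT3G45300), of branched-chain amino acid breakdown, rose by 0.42 and 0.34. DIN10 (AT5G20250) and TPS10 (AT1G60140) were not called (-0.03 and -0.08). The 4 members KMD3 (AT2G44130), BZIP1 (AT5G49450), BZIP11 (AT4G34590) and BZIP53 (AT3G62420) were listed at 0 in all 6 libraries. Whether these values mean no transcript or reads that were not counted was not tested. The call of KMD1 was lost without mock replicate 1.

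Defence genes rose in 5 of 16 cases and fell in none, beside 5.47% and 3.78% of all genes. Their median log2 change was 0.41, but 0.17 without ACC replicate 2 and 0.24 without mock replicate 3. Between 4 and 7 rose over the alternatives and left-out libraries. TCH3 (AT2G41100), a touch-induced calmodulin-like gene, had 133, 119.7 and 152 RPM in ACC seedlings, against 70.5, 60.8 and 53.9 RPM in mock seedlings (1.12 ± 0.12, adjusted p = 3.51e-05). FLS2 (AT5G46330), the receptor for bacterial flagellin, had 61.8, 66.7 and 55 RPM in ACC seedlings, against 37.1, 31.5 and 34 RPM in mock seedlings (0.82 ± 0.13, adjusted p = 0.00107). WRKY40 (AT1G80840), WRKY33 (AT2G38470) and ICS1 (AT1G74710), an enzyme of salicylic acid synthesis, rose by 1.28, 0.77 and 0.42. Classical late defence outputs gave no call. PR1 (AT2G14610) had 1.43, 2.89 and 0.427 RPM after ACC and 2.15, 1.46 and 0.429 RPM after mock, and the chitinase gene CHIB (AT3G12500) had 6.43, 8.97 and 2.81 RPM after ACC and 5.3, 6.3 and 3.43 RPM after mock. PDF1.2 (AT5G44420), a defensin gene used as a marker of ethylene with jasmonate, was at 0, 0.0482 and 0 RPM after ACC and at 0 in all mock libraries, below the filter. The call of ICS1 was lost with edgeR, with median-of-ratios scaling, with no filter and with the replicate number as a block. It was also lost without ACC replicate 1 or 2, any mock library at 2 h or ACC 4 h replicate 2.

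Single genes of other pathways stood out against lists that otherwise had few calls. PIF3 (AT1G09530), a growth factor of light signalling, had 157, 156 and 166 RPM in ACC seedlings, against 53, 49.5 and 49.6 RPM in mock seedlings (1.64 ± 0.10, adjusted p = 6.52e-07), while PIF1 (AT2G20180) fell by 0.48 ± 0.07 and the other 16 light and shade genes were not called. HB1 (AT2G16060), a haemoglobin of low oxygen responses, had 53.3, 53.3 and 49.1 RPM in ACC seedlings, against 16, 16.9 and 18 RPM in mock seedlings (1.56 ± 0.12, adjusted p = 2.06e-06). LBD41 (AT3G02550), also a low oxygen gene, rose by 1.81 ± 0.46 (adjusted p = 0.0249). It was not called with no filter, or without ACC replicate 2, ACC replicate 3 or any of the mock libraries at 2 h. The enzyme genes ADH1 (AT1G77120) and PDC1 (AT4G33070) of the same list were not called (0.32 and 0.21). In the flavonoid list TT8 (AT4G09820), a bHLH regulator, had 7.42, 6.99 and 6.9 RPM in ACC seedlings, against 2.68, 1.9 and 2.74 RPM in mock seedlings (1.25 ± 0.11, adjusted p = 1.16e-05). MYB111 (AT5G49330), a regulator of flavonol synthesis, and its targets CHS (AT5G13930) and FLS1 (AT5G08640) fell by 0.73, 0.46 and 0.43. The calls of CHS and FLS1 were lost without mock replicate 3. That of FLS1 was also lost without ACC replicate 1 or 3 and with only the 2 h libraries. APX1 (AT1G07890), a cytosolic ascorbate peroxidase, was among the largest falls in RPM, with 592, 629 and 639 RPM in ACC seedlings, against 817, 886 and 861 RPM in mock seedlings (-0.46 ± 0.06, adjusted p = 0.00016).

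Some lists held almost no called gene, where 9.25% of all genes were called in either direction. None of 22 photosynthesis genes was called, though all 22 had log2 changes below 0 (median -0.24, but -0.14 without ACC replicate 3), and at 7284, 7745 and 4339.8 RPM after ACC and 8198, 8413 and 7238 RPM after mock, LHCB1.3 (AT1G29930) was lowest in ACC replicate 3. Over the alternatives and left-out libraries between 0 and 4 of them were called, all downward. Of 17 cell division genes the cyclin gene CYCD1;1 (AT1G70210) fell by 0.45, and of 9 clock genes ELF4 (AT2G40080) fell by 0.25. Of 5 heat shock genes the factor gene DREB2A (AT5G05410) fell by 0.42, and of 18 iron genes the transporter gene IRT2 (AT4G19680) rose by 0.49. All of these calls but that of IRT2 were lost without any of several single libraries at 2 h, and with only the 2 h libraries. No nitrate gene was called among 7. TOR (AT1G50030), the growth kinase studied elsewhere in the series, had 106, 104 and 107 RPM in ACC seedlings and 86.8, 95.6 and 101 RPM in mock seedlings. It was not called (0.16 ± 0.07, adjusted p = 0.203), though its groups did not overlap, as for 24.0% of all genes tested. HXK1 (AT4G29130), the glucose sensor, had 87.1, 88.7 and 85.6 RPM in ACC seedlings and 69.8, 85.5 and 76.5 RPM in mock seedlings (0.18 ± 0.06, adjusted p = 0.111), and was called when mock replicate 2 was left out.

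**Figure D4:**
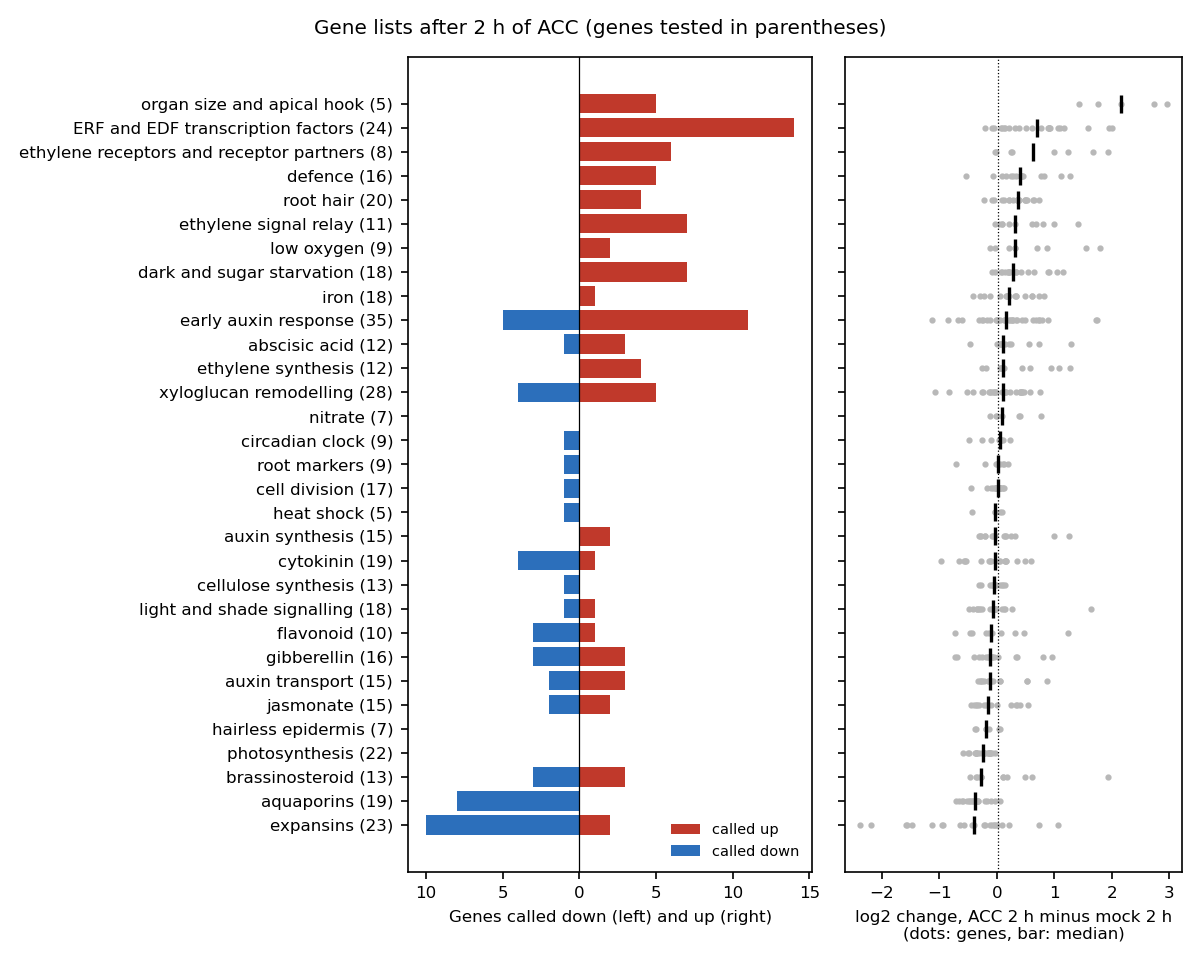
The left panel gives the number of genes called down (blue, left) and up (red, right) in each of 31 gene lists with tested members, and the right panel the log2 change of each gene (dots) with the list median (bar) and the median of all genes (dotted line, 0.03). Lists run from organ size and hook genes at the top (median 2.16) to expansins at the bottom (median -0.40).

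Most genes called at 2 h were called the same way in the separate libraries at 4 h, where 3773 genes were called (19.4%), 2047 up (10.5%) and 1726 down (8.88%). The split at 4 h depended on scaling, being 1462 up with 1986 down once median-of-ratios factors were applied. At 4 h, 2477 genes were called when ACC replicate 1 was left out, and 2462 or 2428 without the second or the third mock library. The comparisons share no library, though they share 1 estimate of the spread, and same-numbered mock libraries deviated together across the times (residual r of 0.595, 0.411 and 0.382 across genes), which this fit does not model. Of the 1064 genes that rose at 2 h, 779 (73.2%) also rose at 4 h, which was 38.1% of the genes that rose at 4 h, and 2 fell. Of the 735 genes that fell at 2 h, 586 (79.7%) also fell at 4 h, which was 33.95% of the genes that fell at 4 h, and none rose. HEC2, ARL and AT5G44260 changed by 2.23, 2.56 and 2.29 at 4 h, and EXPA5 by -2.32. Lists with larger counts at 4 h than at 2 h included aquaporins, with 15 down and 1 up of 19, and photosynthesis, with 13 down of 22.

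The difference of the ACC effects between the times was called for 7 genes (0.036%). In 6 of them the ACC effect was more negative at 4 h. AT5G46900, of the lipid transfer family, had 7.72, 8.77 and 9.1 RPM in ACC 2 h seedlings, against 17.2, 27.9 and 30.2 RPM in mock 2 h seedlings, and 0.962, 0.833 and 1.49 RPM in ACC 4 h seedlings, against 25.8, 27.7 and 31.4 RPM in mock 4 h seedlings (difference -2.39 ± 0.25, adjusted p = 0.0055). Its similar neighbour AT5G46890 had 6.53, 8.24 and 4.21 RPM in ACC 2 h seedlings, against 12.9, 22.1 and 19.9 RPM in mock 2 h seedlings, and 1.47, 0.667 and 1.15 RPM in ACC 4 h seedlings, against 24.2, 23.5 and 23.1 RPM in mock 4 h seedlings (difference -2.17 ± 0.31, adjusted p = 0.0287). These genes were already lower in every ACC library at 2 h. ATCSLB05 (AT4G15290), a cellulose synthase-like gene, differed by -1.55 ± 0.23 (adjusted p = 0.0448) with 15.6, 15.2 and 14.2 RPM in ACC 2 h seedlings, against 10.7, 19.1 and 16.4 RPM in mock 2 h seedlings, so the groups overlapped at 2 h. Elsewhere a call at 1 time and not at the other, as for XTH18 (AT4G30280, 0.48 at 2 h and -0.05 at 4 h), is not shown to differ between times. Leaving out ACC 2 h replicate 3 gave 288 genes in place of 7, and leaving out another ACC library, mock 2 h replicate 3 or any mock 4 h library gave between 1 and 3. DESeq2 called 55. With the replicate number as a block 7 genes were again called, of which 4 were shared, and AT5G46890, ATCSLB05 and AT3G59370 lost their calls (adjusted p = 0.0538, 0.0818 and 0.0538). AT5G46900 kept its call under all 20 alternatives and left-out libraries, and the other 6 lost theirs in 8 to 11 of them.

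**Figure D5:**
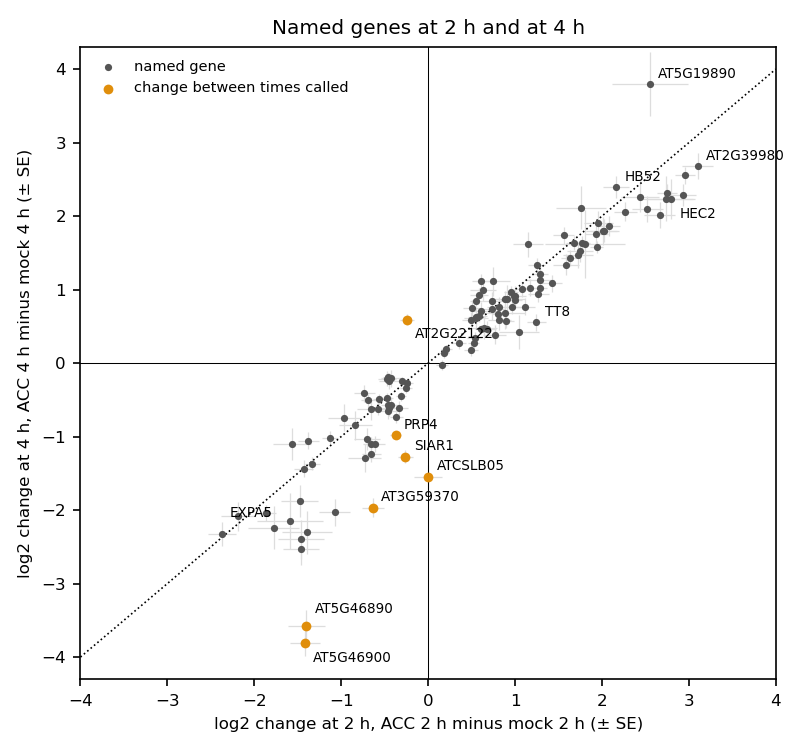
Each dot is 1 of 124 named genes, with its log2 change at 2 h (ACC 2 h minus mock 2 h) on the x axis, its log2 change at 4 h (ACC 4 h minus mock 4 h) on the y axis, SE bars in light grey and a dotted line where the 2 changes are equal. The 7 genes whose change differed between the times are orange, AT5G46900 lowest at -3.81 at 4 h.

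The genes that answered ACC were set beside the glucose response of Col-0 seedlings that had grown without glucose, measured in separate libraries. Glucose for 2 h changed 10883 of 19336 genes (56.3%), 6909 up (35.7%) and 3974 down (20.6%), and 5588 up with 5876 down once median-of-ratios factors were applied. Of 1013 genes that rose with ACC and were tested in both, 358 fell with glucose (35.3% of them, and 9.01% of the genes that fell with glucose) and 266 rose (26.3%, and 3.85% of the genes that rose with glucose). Over all 18781 genes tested in both, 20.6% fell and 36.3% rose with glucose. Of 720 genes that fell with ACC, 350 rose with glucose (48.6%, and 5.07% of the genes that rose with glucose) and 154 fell (21.4%, and 3.88% of the genes that fell with glucose). All of these shares rest on the calls made on RPM and were not recomputed with median-of-ratios factors. Among the largest ACC rises, AT3G20395, AT5G44260 and AT2G39400 changed with glucose by -4.02 ± 0.17, -3.75 ± 0.23 and -2.83 ± 0.23 (adjusted p = 1.91e-09, 3.9e-08 and 3.91e-07). Other genes that rose with ACC were not called in the glucose comparison, HEC1 at 0.18 ± 0.29 and HB52 at -0.34 ± 0.25 among them (adjusted p = 0.625 and 0.268). Of the expansins that fell with ACC, EXPB1, EXPA14 and EXPB3 rose with glucose by 2.37 ± 0.22, 2.76 ± 0.13 and 3.53 ± 0.30 (adjusted p = 1.12e-06, 5.39e-09 and 5.34e-07), while EXPA10 was not called (0.14 ± 0.19, adjusted p = 0.547).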

How the data were processed

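RNA-seq was done on whole seedlings, and the values used are those the authors deposited, RPM per gene, that is reads on a gene per 1e+06 reads on all listed genes of the library. Reads were aligned with TopHat and counted with HTSeq, per the submitters' processing notes. Versions, genome build, annotation, strand setting and the handling of reads with several matches are not given in the sources used here. Without a stated strand setting, reads of overlapping and antisense genes cannot be told apart, and those of near-identical copies may be split.

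Groups were taken from the sample labels. The genes and lists described were chosen with earlier results of these data known. The 32 gene lists hold 533 entries for 529 genes, of which 526 entries matched by locus code and name and 7 by code alone, and 32835 of the 33602 codes had an entry in RefSeq TAIR10.1, the source of product names and promoters. Promoter coordinates are of that build, which may not be the authors'.

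Genes that reached 1 RPM in 3 or more of the 12 ethylene libraries were tested on log2(RPM + 1), with a pseudocount of 1 RPM, by limma 3.58.1 with a mean-variance trend (R 4.3.3). The fit used the 4 groups of 3 libraries together, and two-sided p-values were adjusted by the Benjamini-Hochberg method over all genes, with calls below 0.05. The glucose comparison was fitted likewise on the 12 libraries of the glucose and TOR experiment, whose columns list fewer genes. The fit was also run on simulated counts, drawn independently for each library with the same spread setting for all genes. That run does not cover libraries that deviate together or a library that stands apart. The genes named in the text were the up to 4 called members of each list with the largest change, the called genes with the 15 top rises and 15 top falls (if their groups did not overlap and either mean reached 5 RPM), the 5 largest rises and 5 largest falls in RPM, the genes whose effect differed between times, and 11 genes always given. These came to 124, and other list members named were chosen after their values were seen.

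The RPM values were whole multiples of the value of 1 read in 100% of the low values checked (within 0.02 reads), so whole reads were recovered, 16.4 to 20.7 M per library at 2 h. They were used for edgeR 4.0.16 (quasi-likelihood, TMM), which called 1803 genes, and DESeq2 1.42.0, which called 1820. The floor of 3 reads covers counting error only, and reads carry no molecular identifiers. The other alternatives were other scalings, filters and pseudocounts, only the 2 h libraries, the replicate number as a block, and each library left out. Libraries of the tor line entered only the gene filter and the spread of the glucose fit. Libraries of the series outside these experiments were not analysed here. A result that needs an item withheld for evaluation is not reported here.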

Additional observations from a re-analysis of the deposited data

Results flagged for a closer look

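The test of the difference between the ACC effect at 4 h and that at 2 h picked out 7 genes, and their values are differences of log2(RPM + 1) changes, 4 h minus 2 h. The lipid transfer family genes AT5G46900 and AT5G46890 differed by -2.39 and -2.17. ATCSLB05 (a cellulose synthase-like gene) differed by -1.55, AT3G59370 (annotated as similar to a vacuolar calcium-binding protein) by -1.33, SIAR1 (an amino acid transporter) by -1.01 and PRP4 (a proline-rich wall protein) by -0.61. The uncharacterized gene AT2G22122 was alone in a positive difference, at 0.84. Groups held 3 libraries each, so no library was tested as an outlier. With the replicate number as a block, AT5G46890, ATCSLB05 and AT3G59370 were no longer called, and AT5G46900 was the 1 gene called under all 20 alternatives and left-out libraries.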

How the results depend on the processing

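With only the 2 h libraries in the fit, 1185 genes were called, 727 up and 458 down, where fewer libraries estimate the spread. Asking for a change of at least 2-fold left 220 genes, 169 up and 51 down. Left-out libraries gave 1336 to 1730 genes, 806 to 1036 up and 530 to 711 down, the lowest total without mock 2 h replicate 3. The remaining alternatives gave 1603 to 1859 genes. The share of rises depended on scaling, with 915 up and 884 down under median-of-ratios scaling, 920 and 883 with edgeR and 927 and 893 with DESeq2, beside 1064 and 735 on RPM.

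At 4 h, 2428 to 4440 genes were called with a library left out, the lowest counts being 2477 without ACC 4 h replicate 1, 2462 without mock 4 h replicate 2 and 2428 without mock 4 h replicate 3. With edgeR 1564 of 3473 genes called at 4 h rose, and with DESeq2 1308 of 3298. For the change between times, DESeq2 called 55 genes and the fit with no filter 1, and left-out libraries gave 1 to 288, with 288 without ACC 2 h replicate 3. The cause of these differences was not tested. The glucose comparison gave 9532 to 11464 genes.

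The replicate number as a block gave 1859 genes at 2 h (1085 up and 774 down), 3873 at 4 h, 7 for the change between times (4 of them shared with the 7 of the fit without the block) and 10692 for glucose. Residuals of same-numbered ACC and mock libraries at 2 h correlated with r of 0.040, 0.167 and 0.406 across genes, and not every library correlated best with its own number, so the numbers were not taken as pairs there. Across times the residuals of same-numbered mock libraries correlated with r of 0.595, 0.411 and 0.382, each the best match of its number, and those of same-numbered ACC libraries with -0.065, -0.182 and -0.261.

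Of 170 called genes that were named or in a list, 131 were called under each of 9 alternatives and without each of 12 libraries, 30 lost the call under an alternative and 9 only when a library was left out, and no direction reversed. Of 323 uncalled list members, 44 were called under at least 1 setting. Genes near the floor, ERF1 and OSR1 in mock seedlings among them, have fold changes set by the pseudocount. With 3 libraries a group, p-values cover the spread between these libraries.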

Other observations

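Gene families outside the lists were counted by keywords in their RefSeq product names. In all, 16 families were searched, chosen after the calls had been seen, and 1 of them (CASP-like proteins) matched no tested gene, so for the other 15 the counts are a description beside the 5.47% of all genes that rose and the 3.78% that fell. Among 40 genes named as arabinogalactan proteins, which are glycoproteins of the cell surface, 10 fell (25.0%) and none rose. Of 48 pectin lyase-like genes 13 fell (27.1%) and 5 rose, of 48 GDSL lipases and esterases 10 fell (20.8%) and 4 rose, and of 43 genes of the seed storage 2S albumin and lipid transfer superfamily 9 fell (20.9%) and none rose. In the other direction, 11 of 51 WRKY genes (21.6%), 10 of 65 NAC genes (15.4%) and 9 of 56 peroxidase genes (16.1%) rose, while 0, 2 and 1 fell.

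The remaining families gave smaller or mixed counts. Of 60 genes named as ERF or AP2-type DNA-binding proteins 18 rose and 6 fell, of 43 SAUR genes 10 rose and 6 fell, and of 22 named expansins 2 rose and 10 fell, families that overlap the lists of the report. Among 89 bHLH genes 11 rose and 8 fell, and among 210 RING and U-box genes 18 rose and 11 fell. Among 135 genes with cytochrome P450 in lower case in their product name 8 rose and 11 fell. Names with a capital first letter, such as that of DWF4, were not counted there. Of 147 genes with UDP- in their product name, whether transferases or not, 9 rose and 15 fell. Of 283 ribosomal protein genes 3 rose (1.06%) and 1 fell (0.353%).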
